A study of Caenorhabditis elegans with 22 samples.

Results

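The comparison described here is that of *set-25(n5021)* with N2 in sorted body wall muscle cells, which rests on 4 of the 22 libraries of the series, 2 per genotype. The libraries were chosen by their labels and no measured value was used. Both groups are larvae at about the L3 stage. The *set-25* group carries the n5021 allele on chromosome III and has an intact *met-2* gene, whereas N2 is the Bristol wild-type strain. According to the study's strain list, both genotypes used for the muscle sort also carry the *gwIs4* transgene on the X chromosome, in which the *myo-3* promoter drives RFP and the *baf-1* promoter drives a GFP-LacI fusion with the *let-858* 3' UTR. Red fluorescent cells were sorted after removal of DRAQ7-stained dead cells, and Smart-Seq2 cDNA libraries were made from their RNA. The labels call the 2 libraries of a group independent biological replicates, and pooled larvae stand behind each of them. Muscle of *met-2(n4256)* and of the *met-2 set-25* double mutant, with 2 libraries each, served for the shared estimate of the spread and as further comparisons.

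SET-25 and MET-2 are methyltransferases of histone H3 lysine 9 (H3K9), a modification of silent chromatin. MET-2, the worm homologue of SETDB1, places mono- and dimethylation, and SET-25 can carry H3K9 on to trimethylation. In worms, H3K9 methylation is concentrated on the arms of the autosomes, on repeats and on silent tissue-specific genes. The question addressed by the comparison is which genes change their transcript level in differentiated muscle when SET-25 alone is missing.

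Depth was similar across the 8 muscle libraries, although the 2 *set-25* libraries mark its ends. Replicate 1 of *set-25* had 12096374 counts and replicate 2 had 16416460 counts, against 14313547 and 13249140 counts in N2. The less deep library nevertheless detected more genes, with 8640 genes at 10 counts or more in *set-25* replicate 1 and 8015 in replicate 2, against 8311 and 8032 in N2. Intervals and detection limits given here cover counting error only where they rest on counts alone, since reads amplified by PCR are not independent molecules.

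The labelled cell type was checked first. *myo-3*, which encodes a muscle myosin heavy chain and whose promoter drove the sort marker, had 46012 and 73332 counts in *set-25* muscle, against 63794 and 54327 in N2 muscle. Its fitted log2 change was 0.03 ± 0.177 (SE), with a sign that turns under library totals. *unc-54*, the major body wall myosin heavy chain gene, had 489643 and 801232 counts in *set-25* muscle, against 644990 and 600241 in N2 muscle (0.06 ± 0.174), and its sign turns likewise. All 43 body wall muscle markers passed the filter on low counts, and their summed level, in CPM (counts scaled by the library total), was 227154 and 274313 in *set-25*, against 227885 and 241075 in N2. In N2 non-muscle cells the same sum was 43906 and 55328 CPM. None of the 43 markers had an unadjusted p under 0.05, and the 95% interval of every one lay within 2-fold in either direction.

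The transcript of the targeted gene does not check the labels. *set-25* (WBGene00012802) had 63 and 126 counts in *set-25* muscle, against 154 and 129 counts in N2 muscle. Both mutant libraries lay below both N2 libraries, but the fitted log2 change of -0.57 ± 0.436 had a 95% interval of -1.53 to 0.38. Counts cover the gene as a whole, and reads from parts outside the lesion are included. *met-2*, the partner gene, had 362 and 728 counts in *set-25* muscle, against 612 and 616 counts in N2 muscle, and the groups overlapped.

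No gene was called between *set-25* and N2 muscle. A gene was called when its Benjamini-Hochberg adjusted p (FDR) in the edgeR quasi-likelihood test was under 0.01 and its change exceeded 2-fold on the scale log2(scaled count + 8), on which changes of weakly expressed genes come out too small. Of 9167 genes tested, 0 were higher and 0 were lower (0% in each direction), and the smallest adjusted p was 0.0545. At an unadjusted p under 0.05, 308 genes were higher in *set-25* (3.36%) and 210 were lower (2.29%). This total of 518 genes compares with 458 that a test at this level would give if no gene differed. Fitted alone, without the other 2 genotypes, the 4 compared libraries gave 186 higher and 143 lower. With library totals in place of TMM factors (edgeR's scaling by a trimmed mean of ratios) the split turned to 239 higher and 262 lower. Leaving out *set-25* replicate 2 gave 506 higher and 349 lower, and leaving out *set-25* replicate 1 gave 363 and 361. The count of calls stayed at 0 when any 1 of the 4 libraries was left out.

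Under the same threshold the likelihood ratio test of edgeR called 18 genes higher (0.196%) and 7 lower (0.0764%), DESeq2 called 3 (0.0327%) and 5 (0.0545%), and limma-voom called 0 and 0, with 238 and 177 genes at an unadjusted p below 0.05. The quasi-likelihood test without a filter on low counts called 35 (0.235%) and 13 (0.0872%) of 14908 genes. In that fit the prior degrees of freedom were infinite, against a median of 7.66 with the filter, so the gene-by-gene spread no longer entered the test. The likelihood ratio test, DESeq2 and the unfiltered test shared 8 called genes, and 22 genes were called by at least 2 alternatives, 15 higher and 7 lower.

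**Figure D1:**
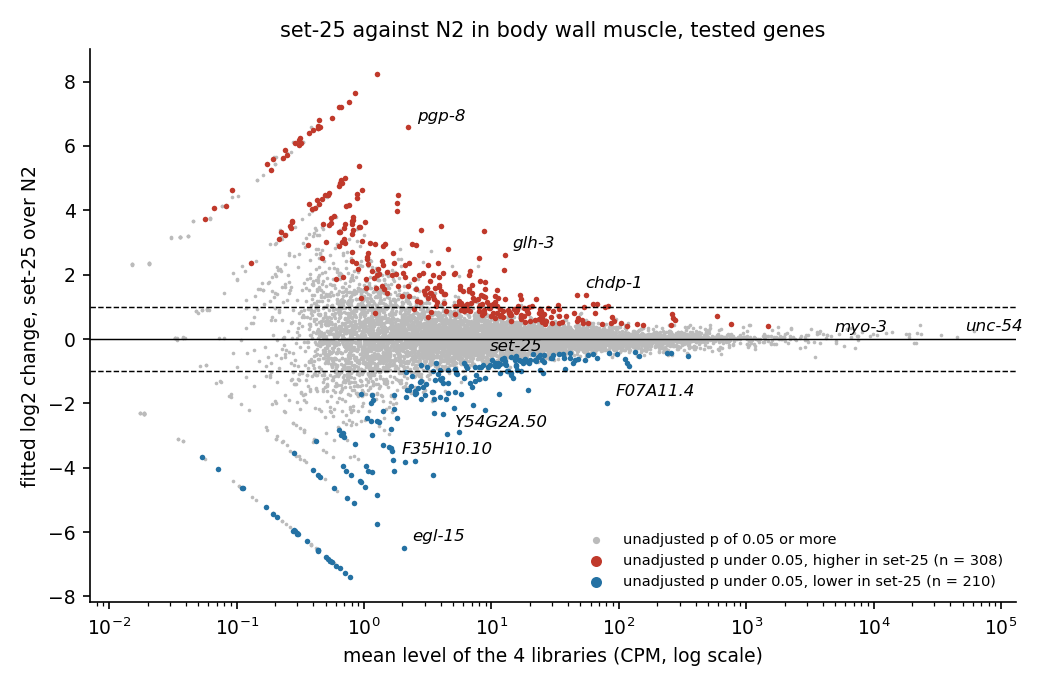
Fitted log2 change of *set-25* over N2 (vertical axis) against the mean level of the 4 libraries in CPM (horizontal log axis) for the tested genes, without the 56 genes at 0 in all 4 libraries. Red and blue points are the 308 and 210 genes at an unadjusted p below 0.05, dashed lines mark 2-fold, and the large fitted changes sit at low levels.

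The size of the changes was small at the centre of the distribution. The median fitted log2 change of all tested genes was 0.016, and the quartiles were -0.22 and 0.28. The 5th and 95th percentiles were -1.07 and 1.46. The median size without regard to sign was 0.25, and the same quantity was 0.31 for *met-2* over N2 muscle, a comparison that shares the N2 libraries. Both *set-25* libraries lay above both N2 libraries for 1398 genes (15.3%) and below them for 1298 genes (14.2%). These shares also moved with the scaling, to 1085 above and 1567 below on library totals. Of the genes at an unadjusted p below 0.05, 287 of those higher and 197 of those lower had groups that did not overlap.

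What these 4 libraries can exclude depends on the level of a gene. Among the 9111 tested genes with an interval, the 95% interval lay within 2-fold in both directions for 4194 genes (46.0%). A 2-fold rise was outside the interval for 5486 genes (60.2%), and a 4-fold rise was outside it for 7323 genes (80.4%). The interval lay wholly above a 2-fold rise for 42 genes and wholly below a 2-fold fall for 34 genes. These intervals are not adjusted for the number of genes, and 0 genes had an adjusted p under 0.05 in the same fit. For genes under 1 CPM the median SE of the fitted log2 change was 1.42, and 0% of intervals lay within 2-fold. For genes of 1 to 5 CPM the median SE was 0.67 and 1.87% of the intervals did so. The share within 2-fold was 51.2% from 5 to 20 CPM, 91.9% from 20 to 100 CPM and 97.3% above 100 CPM. In the last class the median half-width of the interval was 1.34-fold, so the expression of most abundant genes was bounded closely. Below 5 CPM lay 1352 and 2241 genes in the lowest classes, and for most of them a 2-fold difference was not detectable at this depth.

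**Figure D2:**
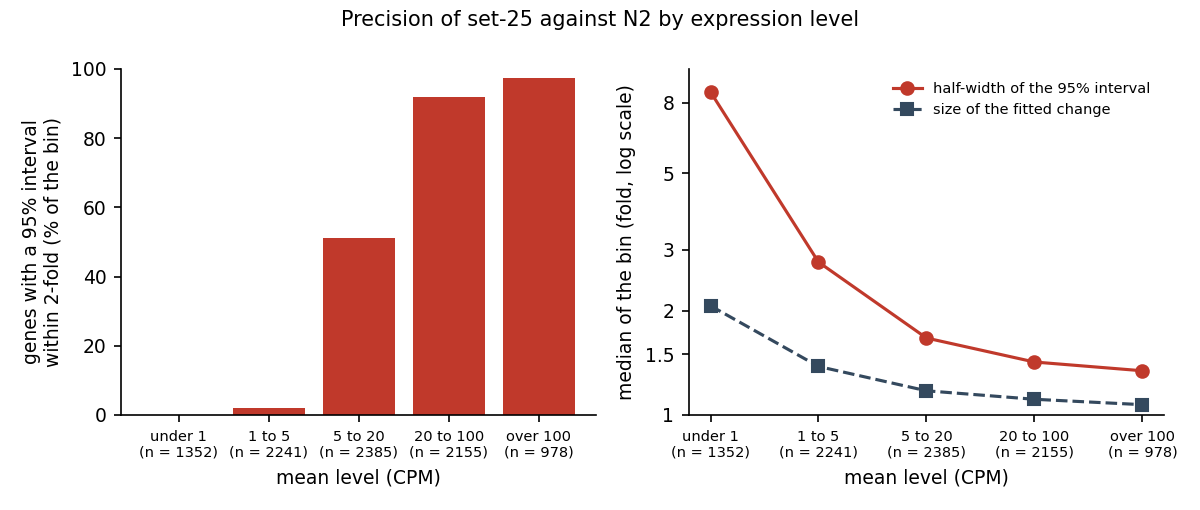
Precision of *set-25* against N2 by mean level in CPM, with the number of genes under each class. Left, the share of genes whose 95% interval lies within 2-fold, 0% under 1 CPM and 97.3% above 100 CPM; right, on a log axis in fold, the median half-width of the interval, from 8.58-fold down to 1.34-fold, above the median size of the fitted change in every class.

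The genes that come nearest to a call are few, and 5 of them had an adjusted p under 0.1. With the 4 compared libraries fitted alone, the adjusted p of these 5 genes lay between 0.17 and 0.82 in edgeR. The lower ones are described first. F07A11.4 (WBGene00008547, chromosome II) had 316 and 599 counts in *set-25* muscle, against 2085 and 1545 counts in N2 muscle. The 2 genotypes did not overlap, and the gap between them was wider than the gap within either. The fitted log2 change was -1.97 ± 0.281 (edgeR, adjusted p 0.0545), with a 95% interval of -2.59 to -1.36. Muscle of *met-2* had 2664 and 2242 counts and that of the double mutant had 1936 and 1015, so both *set-25* libraries lay below every other muscle library. *set-25* was called lower than *met-2* (adjusted p 3.1e-04) and lower than the double mutant (adjusted p 0.0032) for this gene. In N2 non-muscle cells F07A11.4 had 25.8 and 41.1 CPM, against 146 and 117 CPM in N2 muscle cells.

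Y54G2A.50 (chromosome IV) had 11 and 17 counts in *set-25* muscle, against 124 and 96 counts in N2 muscle. Its fitted log2 change was -2.94 ± 0.395 (adjusted p 0.0545, edgeR). F35H10.10, also on chromosome IV, had 5 and 1 counts in *set-25* muscle, against 45 and 42 counts in N2 muscle, with a fitted log2 change of -3.76 ± 0.600 (adjusted p 0.0872, edgeR). Both genes were above the N2 counts in the double mutant, where Y54G2A.50 had 153 and 131 counts and F35H10.10 had 146 and 185. Each was called lower in *set-25* than in *met-2* and than in *met-2 set-25* muscle. In N2 non-muscle cells F35H10.10 had 69.3 and 84.2 CPM, against 3.14 and 3.17 CPM in N2 muscle cells. Y54G2A.50 had 15.1 and 14.3 CPM in non-muscle cells, against 8.66 and 7.25 CPM in N2 muscle cells. The part of reads from other cells in the named genes was not tested.

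A further pair of genes was low in *set-25* and also low in *met-2*. *tsp-7*, a tetraspanin gene, had 48 and 36 counts in *set-25* muscle, against 264 and 143 counts in N2 muscle (fitted log2 change -2.21 ± 0.378). *cpn-1*, which encodes a calponin, had 22 and 13 counts in *set-25* muscle, against 137 and 131 counts in N2 muscle (-2.88 ± 0.517). In *met-2* muscle the counts were 36 and 41 for *tsp-7* and 30 and 50 for *cpn-1*, and neither gene differed between *set-25* and *met-2* at the threshold. Double mutant muscle had 148 and 128 counts of *tsp-7* and 60 and 98 of *cpn-1*. In CPM these lay above both *set-25* libraries and below both N2 libraries. The adjusted p of *set-25* against the double mutant was 0.0236 for *tsp-7* and 0.0338 for *cpn-1* in edgeR. The homeobox gene *ceh-91* had 0 and 5 counts in *set-25* muscle, against 44 and 46 counts in N2 muscle. It had 31 and 34 counts in *met-2* muscle and 54 and 30 in double mutant muscle. None of these 3 genes passed the threshold against N2, with adjusted p of 0.133, 0.155 and 0.337 in edgeR. N2 non-muscle cells had 67.7 and 60.7 CPM of *cpn-1*, against 9.57 and 9.89 CPM in N2 muscle cells. For *ceh-91* they had 23.7 and 17.2 CPM, against 3.07 and 3.47 CPM in muscle cells. *tsp-7* went the other way, with 4.77 and 7.41 CPM in non-muscle cells, against 18.4 and 10.8 CPM in muscle cells.

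Of the 5 genes with an adjusted p under 0.1, 2 were higher. *chdp-1*, named for the calponin homology domain of its product, had 937 and 932 counts in *set-25* muscle, against 357 and 376 counts in N2 muscle, and replicates were closer to each other than the groups by a wide margin. The fitted log2 change was 1.38 ± 0.199 (adjusted p 0.0545, edgeR), with a 95% interval of 0.95 to 1.81. Muscle of *met-2* had 1203 and 1213 counts and that of the double mutant had 1942 and 1867, so the level was above N2 in each mutant. N2 non-muscle cells had 179 and 211 CPM of *chdp-1*, against 24.9 and 28.4 CPM in N2 muscle cells.

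*glh-3*, a germline helicase gene of the Vasa family, had 360 and 226 counts in *set-25* muscle, against 52 and 47 counts in N2 muscle. Its fitted log2 change was 2.62 ± 0.389 (adjusted p 0.0545, edgeR), with a 95% interval of 1.77 to 3.47. *met-2* muscle had 163 and 94 counts and double mutant muscle had 149 and 96, so that both *set-25* libraries were above both libraries of every other muscle genotype. The difference from *met-2* did not pass the threshold (fitted log2 change 1.25 ± 0.363, adjusted p 0.136, edgeR). *zipt-16*, of the ZIP family of zinc transporters, had 141 and 223 counts in *set-25* muscle, against 48 and 56 counts in N2 muscle (1.81 ± 0.348). K09F6.10 had 298 and 262 counts in *set-25* muscle, against 28 and 98 counts in N2 muscle (2.15 ± 0.484), and its N2 libraries differed from each other more than its *set-25* libraries did. In *met-2* muscle *zipt-16* had 162 and 137 counts and K09F6.10 had 174 and 125. The double mutant had 94 and 54 counts of *zipt-16* and 469 and 607 of K09F6.10. Neither gene differed between *set-25* and *met-2* at the threshold. N2 non-muscle cells had 27.7 and 24.6 CPM of *glh-3*, against 3.63 and 3.55 CPM in N2 muscle cells. They had 60.1 and 73.5 CPM of *zipt-16*, against 3.35 and 4.23 CPM in muscle cells. K09F6.10 went the other way, with 1.01 and 1.93 CPM in non-muscle cells, against 1.96 and 7.40 CPM in muscle cells.

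Rises that start near 0 in N2 cannot be given as a fitted fold. *gadr-5* had 21 and 55 counts in *set-25* muscle, against 0 and 0 counts in N2 muscle, and was at least 11.7-fold higher when 3 counts per library are taken as the floor. The same gene had no count in either *met-2* library and had 20 and 26 counts in double mutant muscle, so reads were found in both genotypes that lack SET-25. *fbxa-137*, of the F-box A family, had 16 and 34 counts in *set-25* muscle, against 0 and 0 counts in N2 muscle, which is at least 7.78-fold higher on the same floor. *pgp-8*, an ABC transporter gene, had 85 and 30 counts in *set-25* muscle, against 0 and 1 counts in N2 muscle. It also had 37 and 43 counts in *met-2* muscle and 23 and 4 in double mutant muscle. Its level did not differ between *set-25* and *met-2* at the threshold. Against N2 the adjusted p in edgeR was 0.275 for *gadr-5*, 0.671 for *fbxa-137* and 0.204 for *pgp-8*, so none was called. The bounds use the mean of the 2 *set-25* libraries and leave out the spread between them.

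The other large rises with separated groups were those of *aass-1*, an enzyme gene of lysine breakdown, *parg-2*, a poly(ADP-ribose) glycohydrolase gene, F14B8.6, *htrl-1* and F57H12.6. *aass-1* had 96 and 129 counts in *set-25* muscle, against 6 and 26 counts in N2 muscle. *parg-2* had 161 and 25 counts in *set-25* muscle, against 18 and 0 counts in N2 muscle, so 1 *set-25* library carried most of its reads. In *met-2* muscle the counts were 65 and 25 for *aass-1* and 45 and 89 for *parg-2*. They were 28 and 21 for F14B8.6 and 6 and 31 for *htrl-1* in *met-2* muscle. None of these genes differed between *set-25* and *met-2* at the threshold. The adjusted p of the 5 genes ranged upward from 0.42 in edgeR, and none was near the threshold. Among the falls, the FGF receptor gene *egl-15*, known for its part in sex myoblast migration, had 0 and 1 counts in *set-25* muscle, against 80 and 35 counts in N2 muscle (adjusted p 0.248, edgeR). *met-2* muscle held 11 and 2 counts of it, and the double mutant held 51 and 12. *cpg-22* had 1 and 0 counts in *set-25* muscle, against 40 and 29 counts in N2 muscle. F40E10.5 had 4 and 5 counts in *set-25* muscle, against 33 and 94 counts in N2 muscle. The fall of *srlf-4*, with 8 and 1 counts in *set-25* against 11 and 163 in N2, rests on 1 N2 library.

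**Figure D3:**
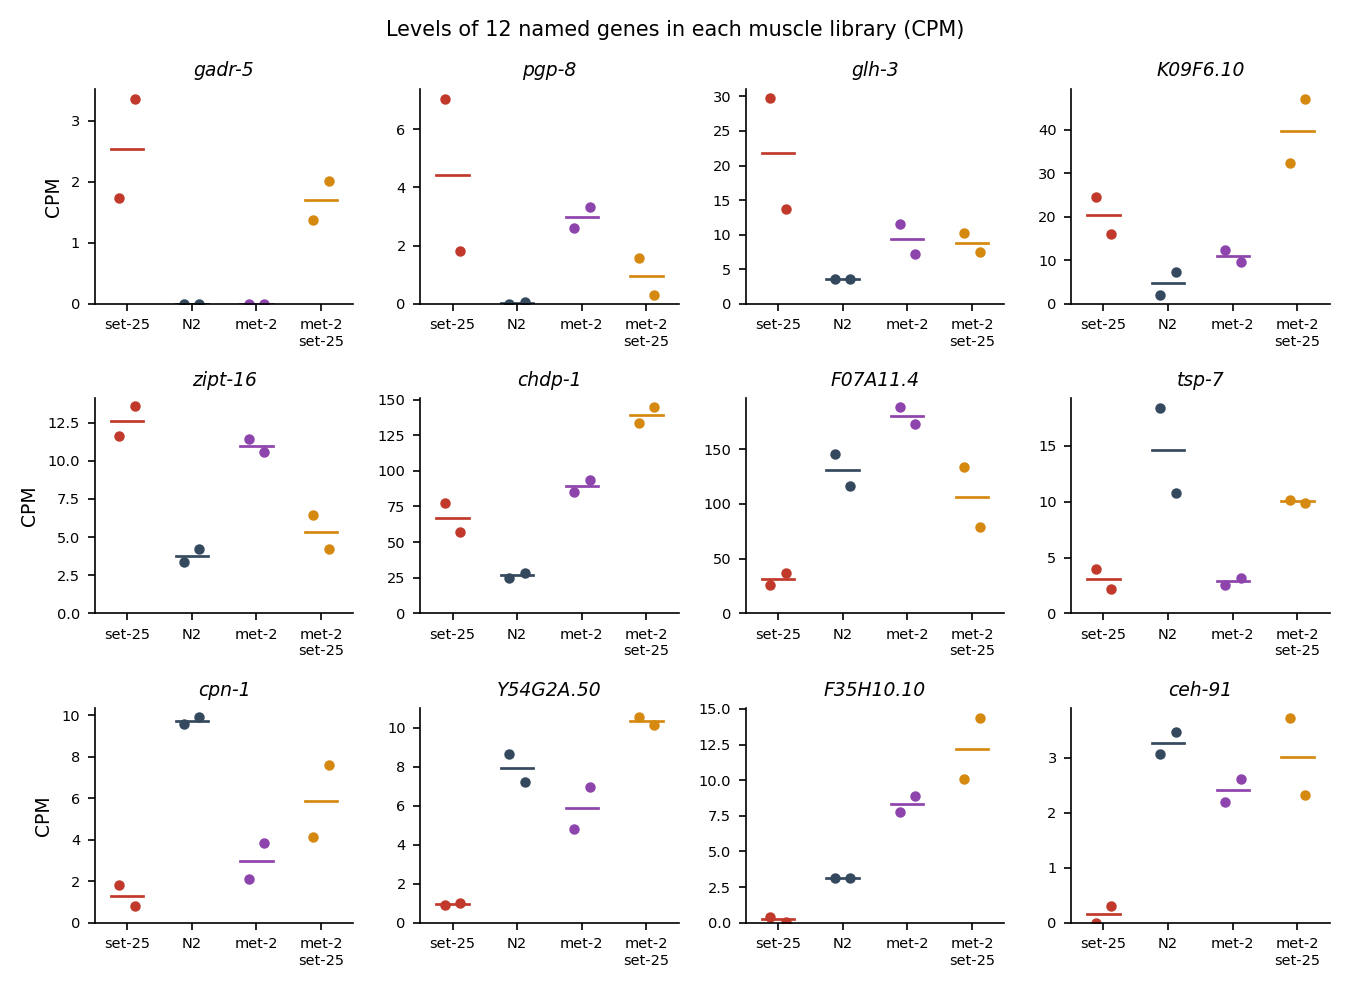
CPM in each muscle library (points) and the mean of the 2 libraries (lines) for the 12 genes called by at least 2 alternative tests with the smallest p, ordered by fitted change, with an axis from 0 for each gene. *set-25* stands apart from the 3 other genotypes for F07A11.4, Y54G2A.50, F35H10.10 and *ceh-91* on the low side and for *glh-3* on the high side.

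The 2 *set-25* libraries differed from each other more than the libraries of any other muscle genotype. Among genes averaging 50 counts or more, 485 of 5990 (8.10%) were over 2-fold apart between the *set-25* libraries. The counterpart was 260 of 5968 (4.36%) in N2, and the double mutant and *met-2* gave 273 (4.52%) and 209 (3.39%). The SD of the log2 ratio between libraries was 0.66 in *set-25*, against 0.49 in N2. The biological coefficient of variation, estimated by edgeR from each pair of libraries alone, was 39.1% in *set-25*, against 30.8% in N2, and was 25.3% in the double mutant and 24.9% for *met-2*. The difference between these spreads was not tested, since 1 pair of libraries per genotype gives 1 value each.

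The direction of the difference depends on the scaling. With TMM factors 287 genes were over 2-fold higher in *set-25* replicate 1 and 198 were higher in replicate 2, whereas library totals gave 506 and 94. The TMM factors were 1.06 and 0.90 for the 2 *set-25* libraries, and the 10 most abundant genes took 27.5% of the counts in replicate 1 and 32.1% in replicate 2. Of the genes higher in replicate 1, 58.9% were more than 2-fold higher in N2 non-muscle than in N2 muscle cells, and of those higher in replicate 2, 69.7% were. Among all 5990 genes the share was 48.1%. The other pairs gave similar or larger shares in most cases. For genes higher in replicate 1 and in replicate 2 they were 67.8% and 64.8% in N2, and 60.9% and 71.8% in *met-2*. In the double mutant they were 71.2% and 28.3%. The shares among all genes of these pairs were 47.4%, 49.1% and 48.8%.

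The far end of the difference lies on one side. In *set-25*, 25 genes were over 8-fold higher in replicate 1 and 0 were over 8-fold higher in replicate 2. The same 2 counts were 1 and 4 in N2, 2 and 2 for *met-2* muscle, and 0 and 2 for the double mutant. Of the 25 genes, 24 were more than 2-fold higher in N2 non-muscle than in N2 muscle cells. Their summed level was 336 CPM in *set-25* replicate 1 and 11.8 CPM in replicate 2, against 56.2 and 59.7 CPM in N2 muscle, and it was 6089 and 5277 CPM in N2 non-muscle cells. All 25 were above both N2 libraries in *set-25* replicate 1, and 18 were below both in replicate 2. The genes were picked for the gap between the *set-25* libraries, so their place relative to N2 follows in part from that choice. The part of reads from other cells in these values was not tested.

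*dod-6* had 383 counts in *set-25* replicate 1 and 9 in replicate 2, against 26 and 16 counts in N2 muscle. *col-176*, a cuticle collagen gene, had 322 and 15 counts in *set-25* muscle, against 26 and 37 counts in N2 muscle. *ant-1.3*, an adenine nucleotide translocator gene, had 193 and 4 counts in *set-25* muscle, against 37 and 9 counts in N2 muscle. These 3 genes were high in 1 *set-25* library only. The *nspc* family varied in N2 as well. *nspc-4* had 191 and 2 counts in *set-25* muscle, against 9 and 73 counts in N2 muscle, and *nspc-14* had 187 and 3 counts in *set-25*, against 10 and 154 in N2. *srlf-32* had 304 and 16 counts in *set-25* muscle, against 107 and 15 in N2 muscle. Members of such families can share reads, and reads that aligned to several places were not counted.

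Genes that were higher in *set-25* replicate 2 were less extreme. *znf-236* had 30 and 201 counts in *set-25* muscle, against 58 and 43 counts in N2 muscle. *lin-15A*, a gene of the synthetic multivulva class, had 27 and 174 counts in *set-25* muscle, against 111 and 64 counts in N2 muscle. *spr-5*, which encodes a histone H3 lysine 4 demethylase, had 110 and 495 counts in *set-25* muscle, against 244 and 244 counts in N2 muscle. For each of these genes the N2 counts lay between those of the 2 *set-25* libraries.

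Each *set-25* library was also set against the mean of N2. Among 5989 genes averaging 50 counts or more in the 4 libraries, 4.71% were over 2-fold from N2 in replicate 1, 160 of them higher, and 4.36% in replicate 2, with 106 higher and 155 lower. Only 39 genes were over 2-fold higher in both libraries, 22 were over 2-fold lower in both, and 18 went in opposite directions. The correlation of log2 values across genes was 0.96 between the *set-25* libraries and 0.97 between the N2 libraries. That of *set-25* replicate 1 with the N2 libraries was 0.96 and 0.97, and that of replicate 2 with them was 0.97 and 0.97. Genes are not independent replicates, and the values describe these libraries.

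**Figure D4:**
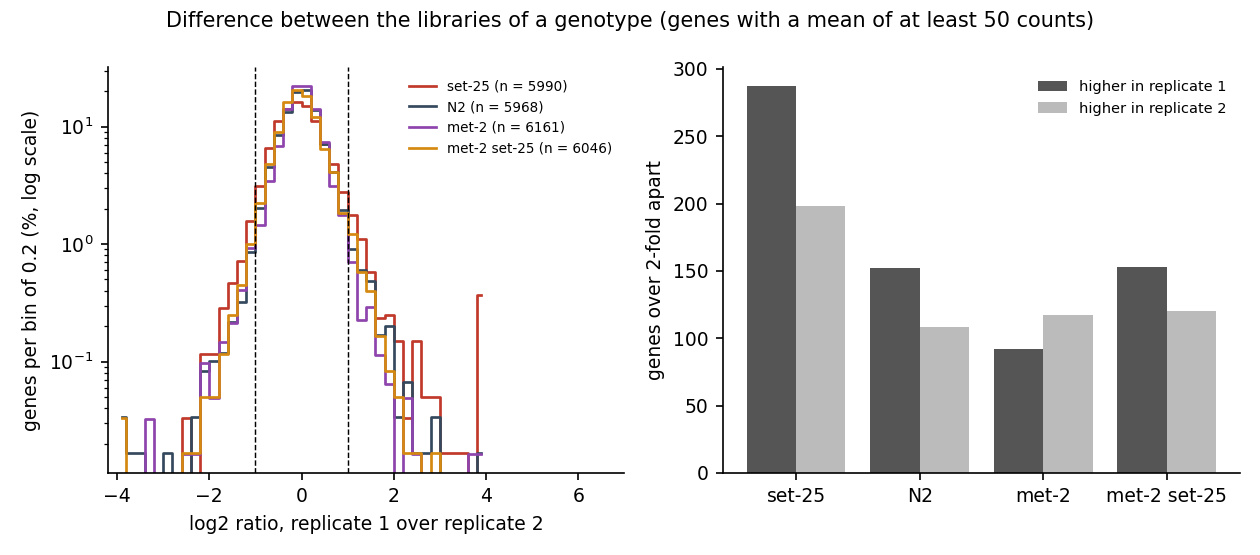
Difference between the 2 libraries of each muscle genotype, for genes averaging 50 counts or more. Left, the share of genes per bin of log2 ratio of replicate 1 over replicate 2 (log axis; ratios beyond 4 in size are placed in the end bins); right, the number of genes over 2-fold apart, 287 and 198 in *set-25* and 152 and 108 in N2.

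Germline genes were the list that stood furthest from 0, and the size of the shift in their median depends on *set-25* replicate 1. Of 43 tested members, 9 were higher and 1 was lower at an unadjusted p below 0.05, beside 3.36% and 2.29% of all genes, and the median fitted log2 change was 0.96, beside 0.016 for all genes. None was called against N2. Without *set-25* replicate 1 the median was 0.18, and without replicate 2 it was 1.18. The summed level of all 51 genes was 672 CPM in *set-25* replicate 1 and 466 CPM in replicate 2, against 536 and 504 CPM in N2, so the sums of the 2 genotypes overlapped. In N2 non-muscle cells it was 7858 and 5982 CPM. *meg-1* was at 0 in all 4 libraries and *puf-5* was at 0 in both *set-25* libraries. The part of germline RNA in the sorted cells was not tested.

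Besides *glh-3*, the member nearest to a call was *syp-4*, a gene of the synaptonemal complex, with 204 and 85 counts in *set-25* muscle, against 29 and 40 counts in N2 muscle (2.12 ± 0.495). The Vasa-like helicase gene *glh-1* had 684 and 532 counts in *set-25* muscle, against 424 and 196 counts in N2 muscle (1.04 ± 0.281). For *pgl-1*, which encodes a core protein of P granules, the counts were 111 and 9 in *set-25* muscle, against 53 and 29 in N2 muscle, with a fitted log2 change of 0.65 that became -2.25 without *set-25* replicate 1. The other members at an unadjusted p below 0.05 were *gld-3*, *hrde-1*, *lotr-1*, *pgl-3*, *syp-3* and *wago-4* on the higher side and *meg-3* on the lower side, and those of them beyond *hrde-1* and *lotr-1* were chosen after their values were seen. The nuclear Argonaute gene *hrde-1* had 44 and 66 counts in *set-25* muscle, against 36 and 34 counts in N2 muscle. Of the 18 members averaging 50 counts or more, 7 were over 2-fold higher in *set-25* replicate 1 than in replicate 2 and 0 the other way.

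The 43 tested germline genes had a median fitted log2 change over N2 of 1.37 in *met-2*, beside 0.96 in *set-25*. Of these, 13 were called lower in *set-25* than in *met-2* and 0 were called higher. Some members lay much further apart than the medians. *glh-1* had 25621 and 22999 counts in *met-2* muscle, *pgl-1* had 1598 and 1557, and *lotr-1*, with 37 and 23 counts in *set-25* muscle, had 1999 and 1908. Each was called lower in *set-25* than in *met-2*, with fitted log2 differences of -5.27 ± 0.321 for *glh-1*, -4.62 ± 0.676 for *pgl-1* and -5.97 ± 0.354 for *lotr-1*. Over all tested genes, 175 (1.91%) were called lower in *set-25* than in *met-2* muscle and 4 (0.0436%) were called higher. Against *met-2 set-25* muscle, 195 genes (2.13%) were lower in *set-25* and 14 (0.153%) were higher. The 164 genes lower than both make up 93.7% of the first list and 84.1% of the second, and 3 genes were higher than both. *met-2* itself had 199 genes (2.17%) called higher than N2. These 2 comparisons share the *set-25* libraries. The few genes called higher than in *met-2* were between 2 and 9 when 1 library was left out, with 9 without *set-25* replicate 2 and 2 without either *met-2* library. Those called higher than in the double mutant were between 8 and 23, with 23 without *set-25* replicate 2 and 8 without *met-2 set-25* replicate 1.

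Further genes chosen for their levels in *met-2* muscle were low in *set-25* and in N2. *ddn-1* had 0 and 2 counts in *set-25* muscle, against 1 and 0 counts in N2 muscle, with 1524 and 1184 in *met-2*. F15D4.5 had 53 and 67 counts in *set-25* muscle, against 26 and 42 counts in N2 muscle (fitted log2 change 0.83 ± 0.279, unadjusted p 0.0117 in edgeR), with 7954 and 7856 in *met-2*, so that both *set-25* libraries were above both N2 libraries and far below *met-2*. *pals-30* had 0 counts in all 4 libraries of *set-25* and N2, which allows up to 0.248 CPM in *set-25* replicate 1, and it was low in *met-2* too, with 19 and 4 counts. The 5 members of the *enu-3* family summed to 12 and 11 CPM in *set-25*, against 11 and 11 CPM in N2, with 692 and 644 CPM in *met-2*, and 0 of them passed an unadjusted p of 0.05. Reads of near-identical copies were not counted in these 2 families, so their levels are uncertain.

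The genes that rose in degron muscle with auxin, which removes tagged MET-2, form a list from other libraries. In *set-25* muscle 103 of its members were tested, with 13 higher and 6 lower at an unadjusted p below 0.05, beside 3.36% and 2.29% of all genes. Their median fitted log2 change was 0.07 in *set-25* and 4.73 in *met-2*, both against the shared N2 libraries. A 2-fold rise lay outside the 95% interval for 49 of the 97 members that had one, and 64 members were called lower in *set-25* than in *met-2*. The higher members included *glh-1*, *hrde-1*, *lotr-1* and F15D4.5. Among the lower ones, *ppt-1*, chosen after its values were seen, had 554 and 946 counts in *set-25* muscle, against 1169 and 1095 counts in N2 muscle. The median lay between -0.00013 and 0.22 when 1 library was left out, with the low end without *set-25* replicate 1.

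Of the 40 tested H3K9 methylation and heterochromatin factors, 2 (5.00%) were higher and 0 were lower at an unadjusted p below 0.05, beside 3.36% and 2.29% of all genes, and the median fitted log2 change was 0.04, beside 0.016. The 2 higher genes were *hrde-1* and *set-21*, a SET domain gene with 29 and 16 counts in *set-25* muscle, against 1 and 1 counts in N2 muscle. For 19 of the 40 the interval lay within 2-fold. *lmn-1*, the lamin gene, had 1567 and 2070 counts in *set-25* muscle, against 2291 and 1860 in N2 muscle (fitted log2 change -0.16, with 95% bounds of -0.60 and 0.27). *baf-1*, whose promoter is also part of the transgene, had 81 and 69 counts in *set-25* muscle, against 65 and 60 in N2 muscle (0.30 ± 0.398). *let-858*, whose 3' UTR is part of the transgene, had 265 and 317 counts in *set-25* muscle, against 418 and 373 in N2 muscle (-0.42 ± 0.209, with 95% bounds of -0.87 and 0.04).

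The abundant gene groups of muscle were bounded closely. Of 37 oxidative phosphorylation genes, 0 had an unadjusted p under 0.05 and 36 had an interval within 2-fold, with a median fitted log2 change of 0.0024. Of 79 cytosolic ribosomal protein genes, 0 had an unadjusted p under 0.05 and 77 had an interval within 2-fold. The ribosomal genes nevertheless differed between libraries of a genotype, with 9 of 79 over 2-fold higher in *set-25* replicate 1 than in replicate 2 and 0 the other way. Of 32 heat shock and stress genes, 2 (6.25%) were higher and 1 (3.13%) was lower at an unadjusted p below 0.05, beside 3.36% and 2.29% of all genes, with a median of -0.010. *hsp-12.3*, of the small heat shock family, had 495 and 401 counts in *set-25* muscle, against 179 and 346 in N2 muscle. *jun-1*, an AP-1 transcription factor gene, had 1105 and 1247 counts in *set-25* muscle, against 917 and 826 in N2 muscle (0.46 ± 0.192). *hsp-16.2*, a small heat shock gene that was also chosen after its values were seen, had 2977 and 2942 counts in *set-25* muscle, against 3893 and 4283 in N2 muscle.

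Summed levels of the other cell type markers overlapped between genotypes for the intestine and glia lists, and the shares of members past an unadjusted p of 0.05 are to be read beside 3.36% higher and 2.29% lower of all genes. The 17 tested intestine markers had 0 genes at an unadjusted p below 0.05 in either direction. Their summed level was 3770 and 2024 CPM in *set-25*, against 2208 and 2509 CPM in N2 muscle and 1088 and 1239 CPM in non-muscle cells, and *far-2* gave most of it, with 40734 and 27022 counts in *set-25* muscle, against 26910 and 28681 in N2 muscle. Hypodermis and seam cell markers summed to 182 and 180.1 CPM in *set-25*, against 175 and 158 CPM in N2 muscle and 10554 and 9971 CPM in non-muscle cells, with 3 higher (15%) and 1 lower (5.00%) among 20 tested. *sqt-1*, a cuticle collagen gene, had 224 and 366 counts in *set-25* muscle, against 134 and 180 in N2 muscle (0.91 ± 0.370). *dpy-17*, another collagen gene and the lower member, had 1 and 3 counts in *set-25* muscle, against 19 and 16 in N2 muscle. Neuron markers summed to 3221 and 3459 CPM in *set-25*, against 3474 and 3462 CPM in N2 muscle and 1549 and 1722 CPM in non-muscle cells, and the ankyrin gene *unc-44* gave most of the sum, with 27163 and 41028 counts in *set-25* muscle, against 36368 and 33460 in N2 muscle. Intestine and neuron lists summed higher in N2 muscle than in N2 non-muscle cells. Neuron markers had 1 higher gene of 28 (3.57%), *rab-3*, a synaptic vesicle gene with 18 and 34 counts in *set-25* muscle, against 3 and 7 in N2 muscle. Pharynx markers had 1 higher gene of 13, *abu-14*, with 218 and 601 counts in *set-25* muscle, against 190 and 205 in N2 muscle, and glia markers had 1 higher and 1 lower of 5.

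Markers of the sex myoblast lineage and of other mesodermal cells held 2 higher genes (14.3%) and 1 lower gene (7.14%) of 14 tested, beside 3.36% and 2.29% of all genes, with a median of 0.0067. The lower one was *egl-15*, described above. *mls-1*, a T-box gene of uterine muscle fate, had 407 and 468 counts in *set-25* muscle, against 202 and 172 counts in N2 muscle (1.26 ± 0.416). *hlh-8*, the worm Twist gene, which was chosen after its values were seen, had 80 and 96 counts in *set-25* muscle, against 31 and 37 in N2 muscle. The groups did not overlap for any of these 3 genes.

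Families of secreted and surface proteins gave scattered differences. Of 55 cuticle collagens tested, 1 (1.82%) was higher and 3 (5.45%) were lower at an unadjusted p below 0.05, beside 3.36% and 2.29% of all genes, which is the comparison for each family here. *col-77* had 99 and 42 counts in *set-25* muscle, against 249 and 230 counts in N2 muscle (-1.69 ± 0.488), and *col-14* had 28 and 7 counts, against 138 and 55 in N2 muscle (-2.34 ± 0.710). Of 27 neuropeptide-like genes 2 (7.41%) were higher, *nlp-23* with 96 and 80 counts in *set-25* muscle, against 18 and 17 in N2 muscle (2.36 ± 0.474), and *flp-10*, with a fitted log2 change of 1.41 ± 0.464. *nlp-23* had even replicates on both sides, with an unadjusted p of 3.4e-04 in edgeR. Of 42 *fbxa* F-box genes 2 (4.76%) were higher and 1 (2.38%) was lower, and *fbxa-128* had 27 and 32 counts in *set-25* muscle, against 7 and 6 in N2 muscle. Further, of 23 C-type lectin genes 2 (8.70%) were higher. *clec-264* had 1630 and 1727 counts in *set-25* muscle, against 1273 and 1157 in N2 muscle (0.50 ± 0.186). The moulting cycle list had 0 higher and 1 lower (4.35%) of 23, and the lower one, *nas-38*, had 0 and 0 counts in *set-25* against 25 and 0 in N2, so that it rests on 1 library. Among 3 tested transcription factor genes named in the study, the homeobox gene *ceh-48* was lower, with 0 and 2 counts in *set-25* muscle, against 27 and 12 in N2 muscle. The *bath* and *math* families had 1 higher (5.26%) and 0 lower of 19, the *pals* family 0 and 1 (9.09%) of 11, the *sri* and *srt* chemoreceptors 0 and 1 of 5, and the *his* genes 0 and 0 of 7.

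**Figure D5:**
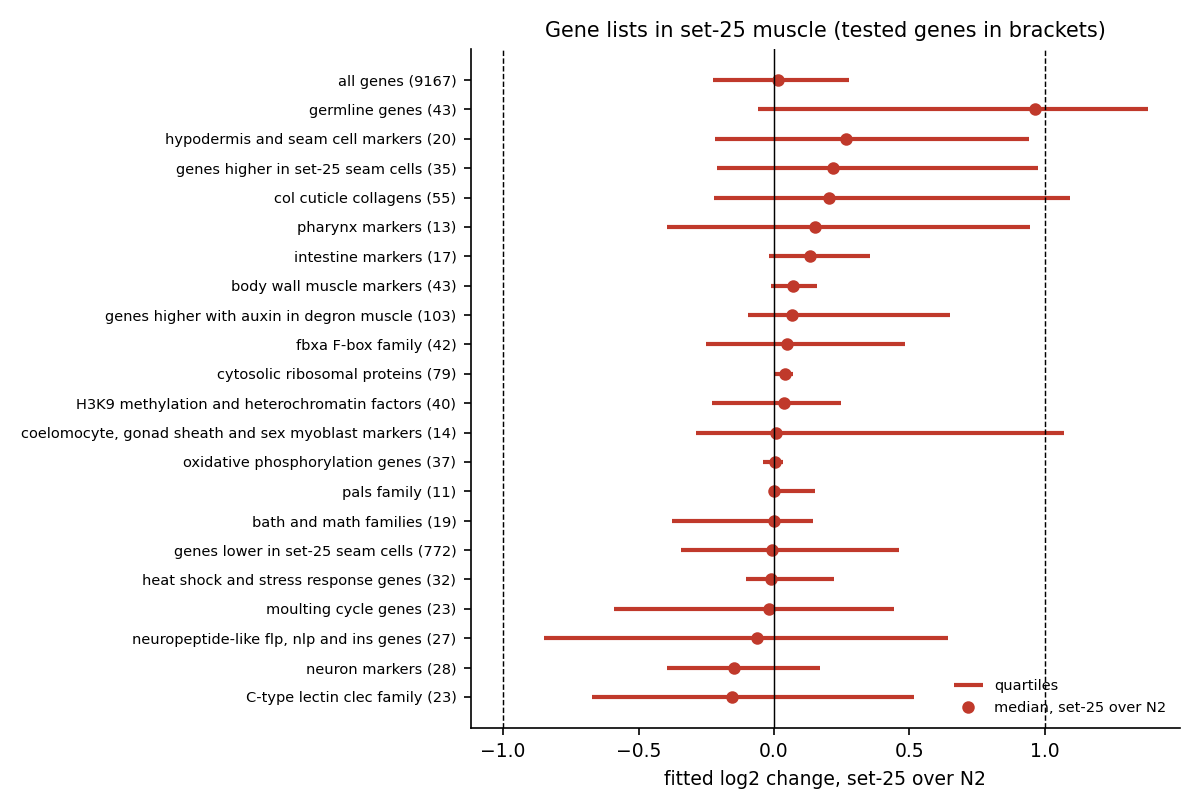
Median (point) and quartiles (line) of the fitted log2 change of *set-25* over N2 for lists with at least 10 tested genes, with the number tested in brackets, all genes on top, a solid line at 0 and dashed lines at 2-fold. The germline list has a median of 0.96, and the medians of the other lists lie between -0.15 and 0.27.

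Position along the genome gave little contrast. The share of genes higher at an unadjusted p below 0.05 ran between 2.33% on chromosome III and 4.30% on the X chromosome, and the share of lower genes ran between 1.75% on chromosome I and 3.04% on chromosome V. With each autosome split by gene order into 3 equal parts, 3.10% of 4706 tested genes in the outer parts were higher and 2.04% were lower, and in the central parts 3.51% of 3102 were higher and 2.61% were lower. Of the 20 tested genes nearest to *set-25*, 0 were higher and 1 was lower. No test of these shares was made.

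The effect of *set-25* loss in muscle was then compared with that in seam cells, which are lateral epidermal cells sorted from other strains. Of 11593 genes tested for an interaction with edgeR, 28 (0.242%) had a more positive change in muscle than in seam cells at an adjusted p under 0.01 and 0 had a more negative one, with 1380 and 730 at an unadjusted p below 0.05. All 28 were called lower in *set-25* seam cells against N2 seam cells. All were also tested in muscle, where the change of 25 of them did not reach an unadjusted p below 0.05. The exceptions were *aass-1*, F32A5.4 and F57H12.6, which were higher in *set-25* muscle at that level. Tissue, strain, sort and experiment follow each other in this comparison and cannot be told apart. The *set-25* seam libraries also detected fewer genes, with 9778 and 9810 at 10 counts or more, against 11749 and 10927 in N2 seam cells. The part of this difference in the 28 genes was not tested.

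Of the 28, 3 were chosen as examples after their values were seen. The first was *icl-1*, a gene of the glyoxylate cycle. It had 5484 and 8863 CPM in *set-25* muscle, against 7328 and 8286 CPM in N2 muscle, and 37.9 and 29.97 CPM in *set-25* seam cells, against 689 and 850 CPM in N2 seam cells. The fitted log2 change was -0.03 in muscle and -4.21 in seam cells, and the interaction was 4.13 ± 0.463 (adjusted p 0.0077, edgeR). *dct-6* had 58.9 and 51.1 CPM in *set-25* muscle, against 51.8 and 47.7 CPM in N2 muscle, and 1.33 and 1.43 CPM in *set-25* seam cells, against 24.8 and 18.99 CPM in N2 seam cells. *aqp-7*, an aquaglyceroporin gene, had 528 and 328 CPM in *set-25* muscle, against 439 and 393 CPM in N2 muscle, and 5.72 and 5.66 CPM in *set-25* seam cells, against 42.6 and 53.0 CPM in N2 seam cells. On these CPM, which use library totals, each of these 3 genes overlapped between genotypes in muscle and was far apart in seam cells. With TMM factors both *set-25* muscle libraries lay above both N2 muscle libraries for *dct-6*, and the other genes still overlapped.

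The count of 28 was sensitive to single libraries. It was 0 without either N2 muscle library, without either *set-25* seam library and without N2 seam replicate 2, 4 without *set-25* muscle replicate 1, 46 without *set-25* muscle replicate 2, and 34 without N2 seam replicate 1. DESeq2 gave 436 genes in the same direction and 90 in the other. Of the 1295 genes called lower in *set-25* seam cells, 772 were tested in muscle, with 24 higher (3.11%) and 28 lower (3.63%) at an unadjusted p below 0.05, beside 3.36% and 2.29% of all genes, so that the share of lower members was above that of all genes. Their median fitted log2 change in muscle was -0.0055, and it was -0.25 without *set-25* replicate 1. Of the 43 genes called higher in *set-25* seam cells 35 were tested in muscle, where 5 (14.3%) were higher and 1 (2.86%) was lower, with a median of 0.22. K09F6.10 was one of the higher genes in both cell types.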

How the data were processed

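Sorted cells were profiled by Smart-Seq2. The deposited values are raw counts per gene: the authors mapped reads to ce10 (QuasR, hisat2) and counted unique alignments over WS220 exons in the sense orientation. Smart-Seq2 does not usually keep strand, so overlapping genes are uncertain. Symbols matched 19182 of 20392 IDs (94.1%); a later assembly gave chromosomes and gene order only.

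R 4.3.3, edgeR 4.0.16 (quasi-likelihood test, TMM, filterByExpr; 8 muscle libraries fitted together), limma 3.58.1 and DESeq2 1.42.0 were used. SE is the fitted log2 change over the square root of F; 95% intervals use its degrees of freedom, and the 56 tested genes at 0 in all 4 libraries have none. CPM use library totals. The test was checked on simulated counts. P-values weigh each change against the spread between the libraries fitted together, an estimate that is partly shared across genes.

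Named genes were those called by at least 2 alternative tests (at most 12), the 10 largest rises and 8 largest falls at an unadjusted p below 0.05 with separated groups, the 8 furthest in each direction between the *set-25* libraries, fixed genes, and per list the 2 with the smallest p and the 2 most abundant. Members, lists and rules were chosen with earlier results of these data known.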

Additional observations from a re-analysis of the deposited data

Results flagged for a closer look

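The change of *set-25* over N2 differed between muscle and seam cells for 28 genes, by the interaction term itself in edgeR at an adjusted p under 0.01. All 28 had a more positive change in muscle. The count was 0 in 5 of the 8 fits that left out 1 library, and experiment and tissue cannot be told apart.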

How the results depend on the processing

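The 2 libraries per genotype limit every comparison, and genes under 5 CPM carry intervals wider than 2-fold in most cases. The count of 0 calls against N2 was kept under RLE factors, library totals, a mean of at least 50 counts, limma-voom, the fit of the 4 libraries alone, other fold rules and the replicate block. It changed to 18 higher and 7 lower with the likelihood ratio test, 3 and 5 with DESeq2, and 35 and 13 without a filter.

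Genes at an unadjusted p below 0.05 were 542 higher and 346 lower without a filter, 183 and 124 at a mean of at least 50 counts, and 186 higher in the 4 libraries alone; leaving out 1 library gave 297 to 506 higher and 142 to 361 lower. The share of intervals within 2-fold was 31.9% without a filter, 67.8% at a mean of at least 50 counts, 44.7% with the replicate block, and 29.3% to 33.6% with 1 library left out. Genes called lower in *set-25* than in *met-2* were 285 without a filter, 297 with the likelihood ratio test and 98 with limma-voom, and 131 to 161 with 1 library left out; those called higher were 44 without a filter, 28 with the likelihood ratio test, 12 with DESeq2, and 2 to 9 with 1 library left out. Against *met-2 set-25* the lower genes were 324, 326 and 123 in the same 3 settings and 150 to 187 with 1 library left out; the higher ones were 78, 52 and 39 without a filter, with the likelihood ratio test and with DESeq2, and 8 to 23 with 1 library left out.

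The interaction count of 28 was 48 with library totals, 669 (and 143 the other way) without a filter, 436 (and 90) with DESeq2, and 0 with the replicate block within tissue; leaving out 1 library gave 0 to 46 (and 0 to 2). The genes over 2-fold apart between the *set-25* libraries were 958 at a minimum of 20 counts, 117 at 200, and 1569 at 1.5-fold. The median of the degron list was 0.0059 with library totals and 0.0065 on the pseudocount scale, and -0.00013 to 0.22 with 1 library left out. That of the seam cell list was -0.25 to 0.075 with 1 library left out. The germline alternatives were chosen after seeing the data: 5 to 16 higher genes and a median of 0.18 to 1.18 with 1 library left out.

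Of 513 alternative values of 58 named genes, 497 kept their direction and side of the threshold, 8 passed it with DESeq2 and 8 changed sign. The likelihood ratio and unfiltered tests, which are not among these values, also called the 8 genes. With library totals the fitted log2 change was -0.049 for *myo-3* and -0.017 for *unc-54*. With 1 library left out it ranged between -0.23 and 0.22 for *myo-3*, -0.22 and 0.27 for *unc-54*, -0.64 and 0.15 for *met-2*, -2.25 and 1.57 for *pgl-1*, and -2.29 and 3.16 for *ddn-1*; the lowest *myo-3* and *unc-54* values came without *set-25* replicate 2. Replicate numbers are shared between genotypes, and no label pairs the samples by them. Across tested genes, the differences between replicates correlated at -0.02 between *set-25* and N2, 0.01 between *set-25* and *met-2*, and -0.07 between *set-25* and *met-2 set-25*. These correlations do not exclude a shared batch. The fit with a replicate block gave 0 calls against N2, and 280 genes higher and 181 lower at an unadjusted p below 0.05.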
